A study of Sus scrofa with 150 samples.

Results

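The genes of the proteasome were followed in the livers of 150 pigs. Members were the probe sets whose annotated gene symbol was PSMA, PSMB, PSMC or PSMD followed by a digit, leaving out PSMB8, PSMB9 and PSMB10, the interferon-inducible subunits. The rule found 36 probe sets for 31 genes, out of 23999 probe sets and 6765 gene symbols in the series. By place in the complex there were 14 core genes (PSMA1 to PSMA7 and PSMB1 to PSMB7), 15 cap subunit genes and 2 cap assembly chaperone genes. PSMC2 and PSMD11 had 3 probe sets each and PSMD1 had 2. For these the probe set with the highest mean level stands for the gene. PSMC4, PSMD7 and PSMD9 had no probe set matched to them here. All 36 probe sets lay above the array floor of 4.09 (log2) on every array, so none was left out of a test.

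The pigs were commercial crosses, Pix(DLxDE), with a mean end weight of 110 kg, and each liver was taken at slaughter and hybridised to 1 Affymetrix Porcine Genome Array. The 150 pigs make up a single untreated group without controls, and sex, age, family and slaughter day are not in the labels. Each pig carried 2 traits measured on the long back muscle. The first was the fat area, 8.1 to 26.7 cm2 with a mean of 15.2 (SD 3.25, n = 150), and the second the drip loss, the weight lost by a hanging muscle sample, 1.45 to 10.8% with a mean of 5.54 (SD 2.12, n = 150).

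The proteasome is the protease that removes ubiquitin-tagged proteins from the cytosol and nucleus. Its core is a barrel of stacked rings: the outer alpha rings gate the entrance, and the inner beta rings carry the cutting sites on PSMB5, PSMB6 and PSMB7. A cap on the end of the barrel has a base, whose ATPases unfold substrates and push them into the core, and a lid, where PSMD14 cuts off the ubiquitin chain. The parts assemble in fixed proportion with the help of chaperones that leave the finished particle. In the liver the proteasome takes part in the turnover of metabolic enzymes and of faulty secretory proteins.

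Some features of the whole array set touch the results below. The array median, the median log2 value over all probe sets of a liver, ran from 5.79 to 6.09, and the 3' minus 5' difference of GAPDH, which grows as RNA degrades, had a mean of 0.921 and an SD of 0.258. The same difference of beta-actin was larger, with a mean of 2.86 and an SD of 0.451, from 1.86 to 3.97. In 13 livers the array stood apart from the rest, with a median correlation over 3 median absolute deviations below that of the others. All 9 measured hepatocyte markers were high (mean log2 levels of 11.4 to 13.9), whereas the 4 neutrophil markers (5.16 to 5.88) and the 3 skeletal muscle markers (4.90 to 5.67) stayed below the median probe set. Other cell types were also detected. Above that median lay 4 of 5 macrophage markers (up to 10.7), 4 of 5 endothelial (up to 9.01) and 4 of 6 stellate and fibroblast markers (up to 10.0). So did 1 of 2 B and plasma cell markers (8.30) and 2 of 4 exocrine pancreas markers (up to 11.1). The same held for 2 of 2 red blood cell markers (up to 8.69) and 2 of 4 bile duct markers (up to 6.85). It also held for 2 of 5 T and NK cell markers (up to 6.30) and 1 of 3 adipocyte markers (6.11). In whole liver, a change in the share of a cell type and a change of RNA per cell cannot be told apart.

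Proteasome genes varied from pig to pig about as much as other genes. The SD of the log2 level over 150 livers had a median of 0.273 over the 31 genes, against 0.259 over all probe sets and 0.316 over the 5974 probe sets whose mean level lay in the members' range. The steadiest was PSMB1, a beta-ring gene, at 10.4 in the lowest liver, 10.79 in the median and 11.22 in the highest (SD 0.155). PSMA7, an alpha-ring gene, was nearly as steady, with 10.7, 11.15 and 11.57 (SD 0.156). In both, the highest liver was under 2-fold above the lowest, at 1.77-fold for PSMB1 and 1.83-fold for PSMA7.

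The widest spread was that of PSMC6, an ATPase of the cap base, at 6.61, 7.995 and 9.33 (SD 0.527), which is 6.59-fold between the extreme livers and 2.62-fold between the 10th and 90th percentile. PSMD1, the large scaffold of the base, followed with 7.83, 8.905 and 9.91 (SD 0.428). PSMB3 of the beta ring ran from 6.84 through 8.44 to 9.22 (SD 0.407), and PSMD14, the deubiquitinase of the lid, from 6.55 through 7.56 to 8.62 (SD 0.407). The cutting subunits were narrower. PSMB5 lay at 9.63, 10.31 and 10.77 (SD 0.248), PSMB6 at 9.27, 10.28 and 10.89 (SD 0.298), and PSMB7 at 10.22, 10.75 and 11.17 (SD 0.186).

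A few livers held many of the extremes. One liver was the lowest in 8 of the 31 genes, PSMA1, PSMA2, PSMA5, PSMA6, PSMC2, PSMD6, PSMD10 and PSMD14. Another was the lowest in 8 different genes, PSMB1, PSMB5, PSMB6, PSMC3, PSMC5, PSMD4, PSMD8 and PSMD13. A further liver was the highest in 7 genes and yet another in 6. The arrays of these livers were among the 13 that stood apart, except that of the liver lowest in PSMA1.

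**Figure D1:**
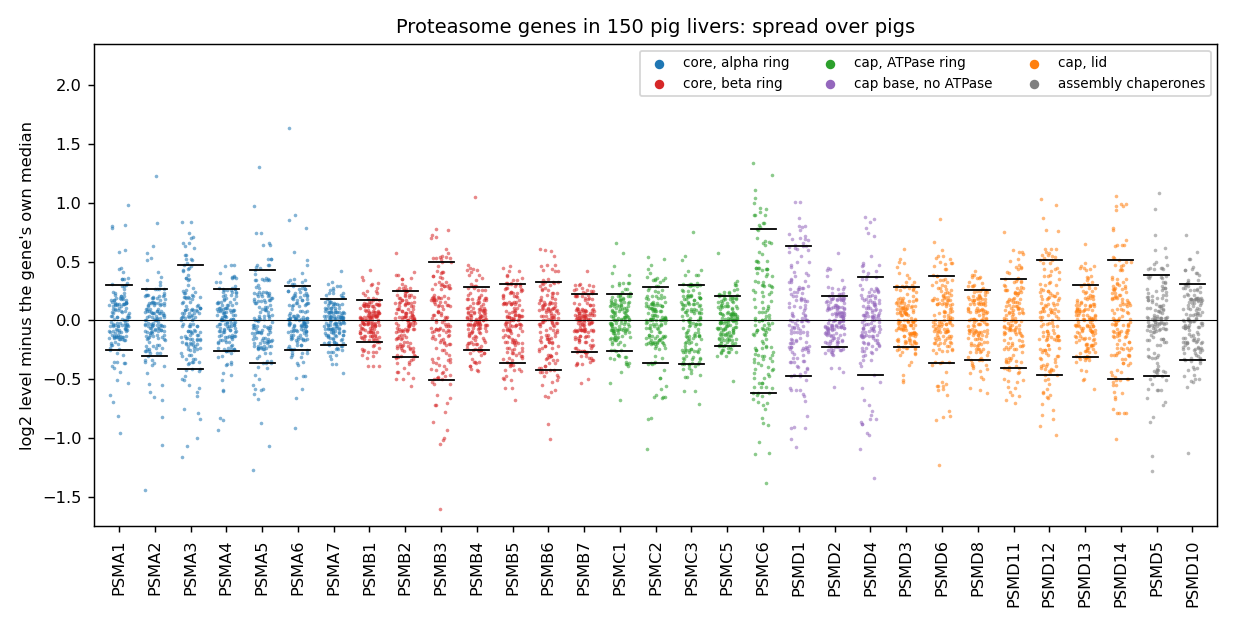
Level of each of the 31 proteasome genes in 150 livers, as log2 minus the gene's own median, with genes on the horizontal axis coloured by place in the complex; each point is a pig and the black bars mark the 10th and 90th percentile. PSMC6 has the widest spread (SD 0.527) and PSMB1 the narrowest (SD 0.155).

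The members rose and fell together more often than they did with other genes, but far from uniformly. Over the 465 pairs of genes the median Pearson r was 0.237, with 336 pairs positive. The same 31 genes had a median r of -0.018 with the remaining probe sets, of which 46.7% were positive. Of the member pairs, 23.2% had an r over 0.5, against 3.66% of pairs of a member with another probe set. The members had a median mean level of 9.72, against 5.95 over all probe sets. Shares of other probe sets here and below are not matched for level, except where a level filter is named. At the other end, 12 pairs (2.58%) had an r under -0.5. The pairs share libraries and the array-wide measures, so these are descriptions without a test.

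The strongest pairs joined the core to the cap as well as subunits of the same ring. PSMB5, the chymotrypsin-like cutting subunit, and PSMD8 of the lid had the highest r, 0.868. PSMC6 and PSMD12 of the lid followed with 0.841, and PSMA3 and PSMD14 with 0.832. The most opposed pair was PSMC6 and PSMD8, both of the cap, with an r of -0.650. PSMC6 was likewise opposed to PSMB5 (-0.637), PSMB6 (-0.620) and PSMB7 (-0.598). Without the 13 arrays that stood apart, PSMB5 with PSMD8 was at 0.846 and PSMC6 with PSMD8 at -0.616.

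Within the rings, agreement was high except for a single gene. All 21 pairs of beta-ring genes were positive, with a median r of 0.577 and a lowest of 0.443. The cutting subunits were closest, with an r of 0.794 for PSMB5 and PSMB6, 0.763 for PSMB5 and PSMB7, and 0.746 for PSMB6 and PSMB7. All 15 pairs of PSMA1 to PSMA6 were positive too, with a median of 0.640 and a highest of 0.801 for PSMA5 and PSMA6. PSMA7 was negatively related to each of these 6, and its lowest r was -0.218. Between the rings the relation was weak. The 49 alpha-beta pairs had a median of 0.151, and the alpha ring had a median of -0.0075 with PSMB5, PSMB6 and PSMB7.

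The cap was less uniform than either ring. The 10 pairs of ATPase genes had a median r of 0.247 and the 21 pairs of lid genes one of 0.073, with 12 of 21 positive. Among the base genes without ATPase activity, PSMD1, PSMD2 and PSMD4 (a ubiquitin receptor), 1 of 3 pairs was positive. The assembly chaperones PSMD5 and PSMD10 (gankyrin) had an r of 0.479 with each other. PSMD5 also followed PSMD6 of the lid at 0.807.

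The genes fell into 2 sets that cut across core and cap, split by the sign of their weight on the first axis of the 31 genes, which held 32.8% of their standardised variance. This split was made after seeing the values, from the same correlations, so a higher r within the sets than between them is built into it. It is a description. One set had 15 genes: PSMA7, all 7 beta-ring genes, PSMC3 and PSMC5 of the ATPases, PSMD2 and PSMD4 of the base, and PSMD3, PSMD8 and PSMD13 of the lid. The other had 16: PSMA1 to PSMA6, PSMC1, PSMC2, PSMC6, PSMD1, PSMD6, PSMD11, PSMD12, PSMD14 and both chaperones. Within the first set the median r was 0.527 and all pairs were positive. Within the second it was 0.464, with all but 1 of 120 positive. Between them it was -0.014, with 46.7% of the 240 pairs positive. On the second axis, with 26.4% of the variance, all 31 genes had a weight of the same sign.

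The sets also differed in their relation to the array median, which moved with this split. All 15 genes of the PSMB5 set had a negative r with it, from -0.724 (PSMD8) to -0.165 (PSMD4), with a median of -0.431. In the other set 13 of 16 were positive, with a median of 0.202 and a highest of 0.787 (PSMC6). Of the 31 genes, 10 (32.3%) had an absolute r over 0.5 with the array median, against 19.2% of all probe sets. The GAPDH 3' minus 5' difference moved with some of the same genes, at -0.518 for PSMB6, -0.510 for PSMB5, -0.497 for PSMD8 and 0.462 for PSMC6. With the array median removed, the median r was 0.421 within the PSMB5 set, 0.483 within the other and 0.087 between them. Over all member pairs 80.9% were then positive and the lowest r was -0.389. With the 3' minus 5' differences removed 73.5% were positive and the lowest was -0.515, against 72.3% and -0.650 on deposited values.

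Array-wide variation was then removed from every gene, as the first 5 principal components of the probe sets that are no members. The first component alone held 24.5% of the variance and had an r of 0.857 with the array median. With the GAPDH 3' minus 5' difference it had an r of 0.686, and the second component had 0.407. The 5 components held a median of 58.9% of the variance of a proteasome gene, from 19.3% for PSMC1 to 89.5% for PSMC6, against a median of 29.95% over all probe sets. In what remained, 425 of the 465 member pairs were positive and the lowest r was -0.266. The median pair r was 0.243, close to its former value, whereas the members with other probe sets had a median of 0.0019. Across the 2 sets 209 of the 240 pairs were positive with a median of 0.170, against medians of 0.350 and 0.268 within them. PSMC6 with PSMD8 went from -0.650 to 0.352 and PSMC6 with PSMD12 from 0.841 to 0.136. PSMB5 with PSMD8 kept an r of 0.600. All 21 pairs of alpha-ring genes, PSMA7 included, and all 21 of the beta ring were positive, with medians of 0.359 and 0.435. PSMA7 stayed weakly related to its own ring, with an r of 0.034 to 0.173 with PSMA1 to PSMA6. Those genes had a median of 0.493 among themselves. What the components stand for was not tested.

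**Figure D2:**
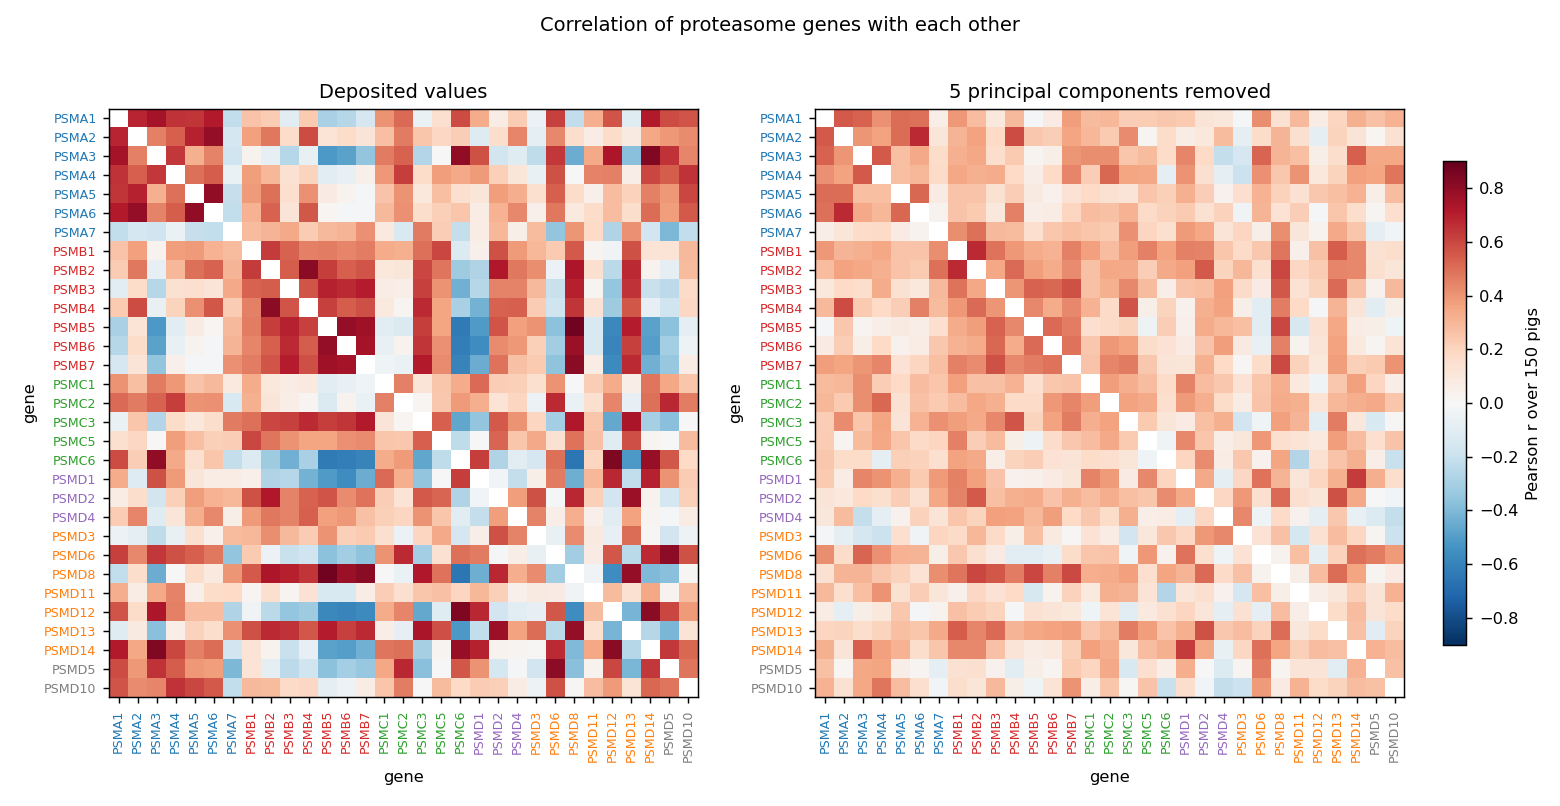
Pearson r between every pair of the 31 proteasome genes over 150 pigs, red for positive and blue for negative, before (left) and after (right) removal of 5 principal components. Gene names run by place in the complex: alpha ring blue, beta ring red, ATPases green, rest of the base purple, lid orange, chaperones grey. On the left 336 of 465 pairs are positive and the lowest r is -0.650; on the right 425 are positive and the lowest is -0.266.

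Averaged over their genes, core and cap rose and fell together, while single pairs differed widely. The 210 pairs of a core gene with a cap subunit gene had an r from -0.637 to 0.868. Their median was 0.222, with 153 positive. The mean standardised level of the 14 core genes and that of the 15 cap subunit genes had a Pearson r of 0.661 (95% interval 0.560 to 0.743, n = 150 pigs) and a Spearman rho of 0.652. Leaving out the 2 pigs with the most extreme core means gave 0.657. The title numbers, whose meaning is not given, were cut into 10 blocks of 6 to 24 pigs, and the relation was positive in all 10, from 0.344 to 0.883 with a median of 0.692. With the array median removed the r was 0.700, and with the 5 components removed 0.747. The intervals take the pigs as unrelated, which the labels do not state.

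**Figure D3:**
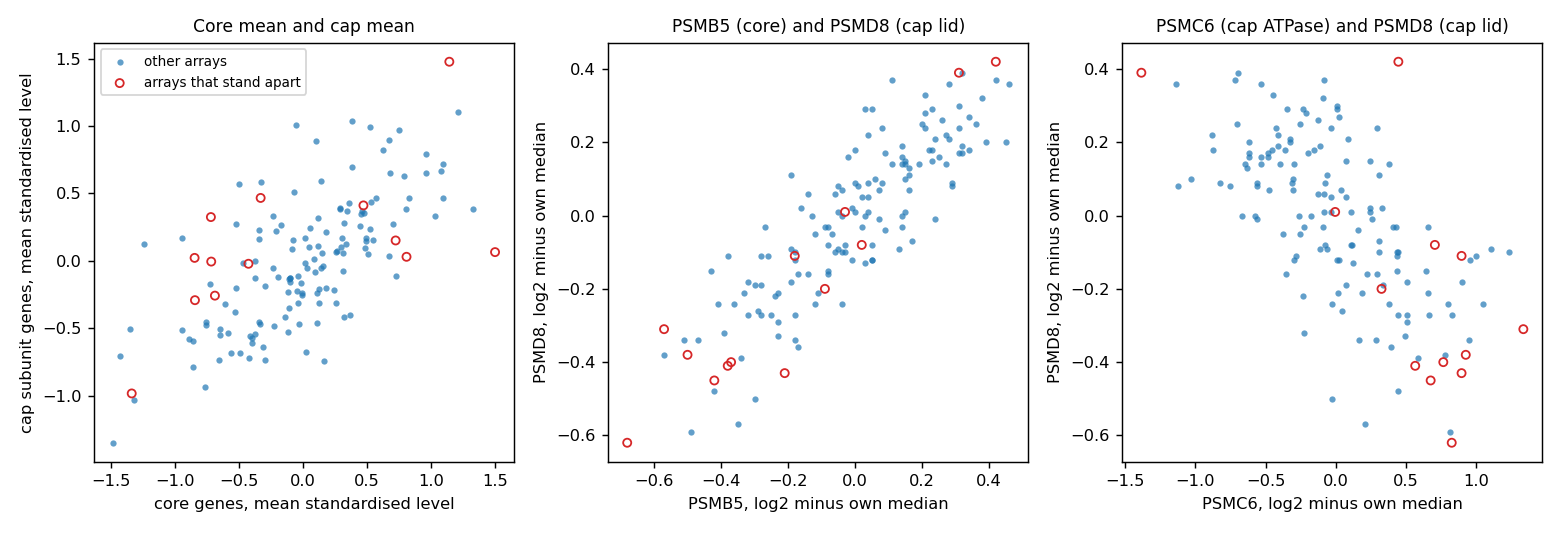
Each point is 1 of 150 pigs; open red circles are the 13 arrays that stand apart. Left: mean standardised level of core genes against cap subunit genes (r = 0.661). Middle: PSMB5 against PSMD8 (r = 0.868). Right: PSMC6 against PSMD8 (r = -0.650), where the cloud falls from left to right; both gene axes are log2 minus the gene's own median.

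How closely each gene followed the rest was measured as its r with the mean of the other 30 genes. All 31 values were positive, with a median of 0.445, and 12 of 31 were over 0.5. Among the 23963 probe sets that are no members, 44.4% had a positive r and 0.972% had an r over 0.5 with the mean of the members. Closest were PSMB1 (0.685) and PSMB2 (0.683) of the beta ring and PSMA4 (0.667) of the alpha ring. Farthest were PSMC6 (0.074), PSMA7 (0.122) and PSMD1 (0.136). The sign for PSMC6 depended on the scaling: it was -0.170 after quantile normalization and -0.148 with each array centred on its median. PSMD1 was also below 0 after quantile normalization, at -0.082, and at 0.049 with centred arrays.

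With the 5 components removed, PSMB1 (0.695) and PSMB2 (0.681) were still the highest. PSMA7 stood at 0.404, PSMD1 at 0.525 and PSMC6 at 0.293, and the lowest were PSMD3 and PSMD12 of the lid, both at 0.192. The cutting subunits moved up as well, PSMB7 from 0.325 to 0.628, PSMB6 from 0.258 to 0.433 and PSMB5 from 0.275 to 0.382. PSMD4 and PSMD10 moved down, from 0.460 to 0.246 and from 0.544 to 0.297. All 31 genes were positive after this step and 14 of them over 0.5, against 50.6% and 0.213% of the other probe sets.

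**Figure D4:**
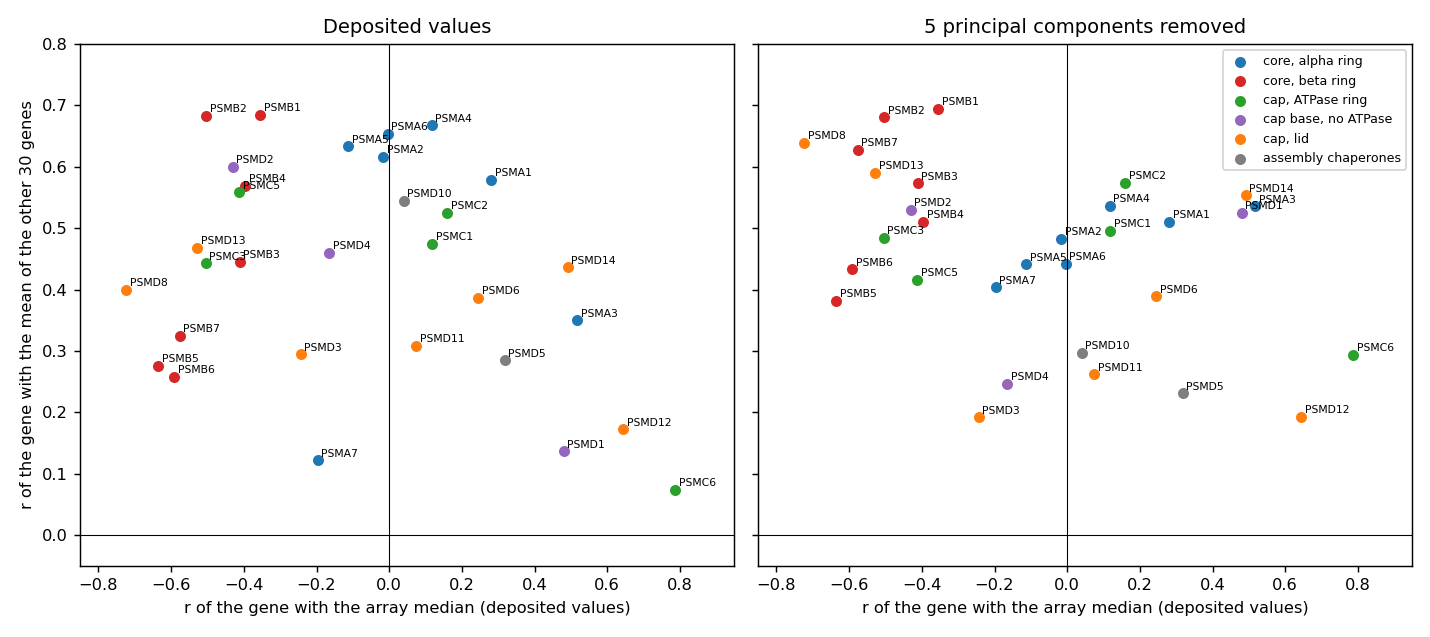
For each of the 31 genes, the r with the array median (horizontal) against the r with the mean of the other 30 genes (vertical), on deposited values (left) and with 5 principal components removed (right); colours give the place in the complex. On the left PSMC6, at 0.787 with the array median, has the lowest r with the other genes (0.074), and on the right it stands at 0.293.

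Co-variation was tested with a single subunit as predictor in a fit over all probe sets (limma, slope per SD of the predictor, Benjamini-Hochberg adjustment, threshold 0.05). The core gene with the highest mean level was PSMA7. Of the other 35 member probe sets, 20 (57.1%) were called with it, against 16.7% of all probe sets. Of the 35, 13 (37.1%) were called higher, against 7.24% of all probe sets, and 7 lower, against 9.45%. All 7 beta-ring genes rose with PSMA7, from 0.044 per SD for PSMB1 (SE 0.013, limma adjusted p = 0.0088) to 0.139 for PSMB3 (SE 0.031, limma adjusted p = 0.00058). PSMC3 of the ATPases rose by 0.121 (SE 0.019, limma adjusted p = 1.7e-06). The chaperone PSMD5 fell by 0.145 (SE 0.027, limma adjusted p = 3.9e-05). The alpha-ring genes PSMA1 and PSMA6, PSMC6, the chaperone PSMD10 and the lid genes PSMD6 and PSMD12 fell as well, by 0.060 to 0.116 per SD. Among probe sets with a mean level above 6, 21 of 35 members (60%) were called with PSMA7, against 29.3%. With the 5 components as covariates, 11 of 35 (31.4%) were called, all higher, against 4.05% of all probe sets in either direction and 2.93% higher. They were PSMB1 to PSMB4, PSMB7, PSMC3, both probe sets of PSMD1, PSMD2, PSMD8 and PSMD13.

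The cap subunit with the highest mean level was PSMD8 of the lid. It called 25 of 35 member probe sets (71.4%), but also 59.6% of all probe sets, so the members' share was not far from the background. Among probe sets with a mean level above 6, which all members passed, it called 25 of 35 members against 73.8%, so their share was not above the background. Without that filter, 14 of the 35 (40%) were called higher, against 25% of all probe sets, and 11 of the 35 lower, against 34.6%. PSMB5 had the smallest adjusted p, with a rise of 0.215 per SD (SE 0.011, limma adjusted p = 4.7e-41), and PSMB3 the largest rise (0.285, SE 0.024). PSMC6 fell by 0.342 (SE 0.033, limma adjusted p = 1.5e-18). With the array median as a covariate 17 of 35 (48.6%) were called against 26.7% of all probe sets, 15 higher against 15.7% and 2 lower against 11.1%. With the 5 components as covariates 24 of 35 (68.6%) were called, all higher, against 8.63% in either direction and 6.38% higher. PSMC6 then rose with PSMD8 by 0.117 (SE 0.026, limma adjusted p = 0.00089), and so did PSMD12 (0.085, SE 0.025, limma adjusted p = 0.016) and PSMD14 (0.138, SE 0.031, limma adjusted p = 0.00069). The chaperones PSMD5 and PSMD10, PSMD6 and the 3 probe sets of PSMD11 were among the 11 that did not pass.

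No proteasome probe set was called for either trait. For the fat area, limma called 0 of 36, against 0.125% of all probe sets. At an unadjusted p under 0.05 there were 3 of 36, or 8.33%, against 7.08%. The labels give no sex, and with EIF1AY as a covariate limma still called 0 of 36, while 7 of 36 (19.4%) had an unadjusted p under 0.05, against 8.37% of all probe sets. The slopes without that covariate were 18 above and 18 below 0, with a median size of 0.014 (log2 per trait SD) against 0.015 over all probe sets.

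PSMD10, the chaperone gankyrin, had the lowest slope on fat area. In the 30 pigs with the smallest fat area (8.1 to 12.5 cm2) its level was 6.56 in the lowest, 7.185 in the median and 7.61 in the highest, and in the 30 with the largest (18.2 to 26.7 cm2) 6.57, 6.955 and 7.67. The ranges overlapped almost fully. Over all 150 pigs its slope was -0.065 per SD (SE 0.022, unadjusted p = 0.0036, limma adjusted p = 0.310), and -0.038 with the 5 components as covariates. PSMD4, the ubiquitin receptor of the base, had the highest slope, 0.057 (SE 0.030, limma adjusted p = 0.722), which was 0.012 with the level of EIF1AY, a Y-linked gene, as a covariate. It stood at 7.69, 8.74 and 9.57 in the leaner 30 pigs and at 7.9, 8.83 and 9.64 in the fatter 30, again with overlapping ranges. By ring, 1 of 7 alpha-ring genes and 6 of 7 beta-ring genes had a slope above 0, none of them called.

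For the drip loss limma called 0 of 36, against 0% of all probe sets. At an unadjusted p under 0.05 2 of 36 were higher, against 5.60% of all probe sets, and 3 were lower, against 5.39%. Slopes were again 18 above and 18 below 0. None of the 7 beta-ring genes had a slope above 0, and their median was -0.029 per SD. These genes are correlated with one another and none passed the test. PSMB3 had the lowest slope, -0.067 (SE 0.033, unadjusted p = 0.0436, limma adjusted p = 0.443). It was -0.038 with the title blocks as covariates, -0.040 with a spline of the title number and -0.028 with the 5 components. Its level was 7.66, 8.49 and 9.22 in the 30 pigs with the least drip loss and 7.42, 8.365 and 8.85 in the 30 with the most, with much overlap.

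PSMD11 of the lid had the highest slope on drip loss, 0.052 (SE 0.024, limma adjusted p = 0.428). With the 3' minus 5' differences as covariates the slope was 0.010. The level of PSMD11 was 8.6, 9.225 and 10.06 in the 30 pigs with the least drip loss and 8.78, 9.37 and 9.76 in the 30 with the most. PSMD3 had the smallest unadjusted p of the members for this trait (slope -0.044, SE 0.017, p = 0.0099, limma adjusted p = 0.343). Its levels were 8.79, 9.12 and 9.57 against 8.69, 8.995 and 9.41, which overlap. For the cutting subunits the slopes on drip loss were -0.032 (SE 0.020) for PSMB5, -0.030 (SE 0.024) for PSMB6 and -0.023 (SE 0.015) for PSMB7, and on fat area 0.019, 0.026 and 0.017, none called.

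The slopes on the traits were also set against each other in a model with both. The difference was called for 0 of 36 probe sets by limma, against 0.00833% of all, and 3 of 36 had an unadjusted p under 0.05 against 7.85%. PSMD4 had the largest difference, 0.114 (SE 0.041, limma adjusted p = 0.414), being the highest on fat area and among the lowest on drip loss.

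**Figure D5:**
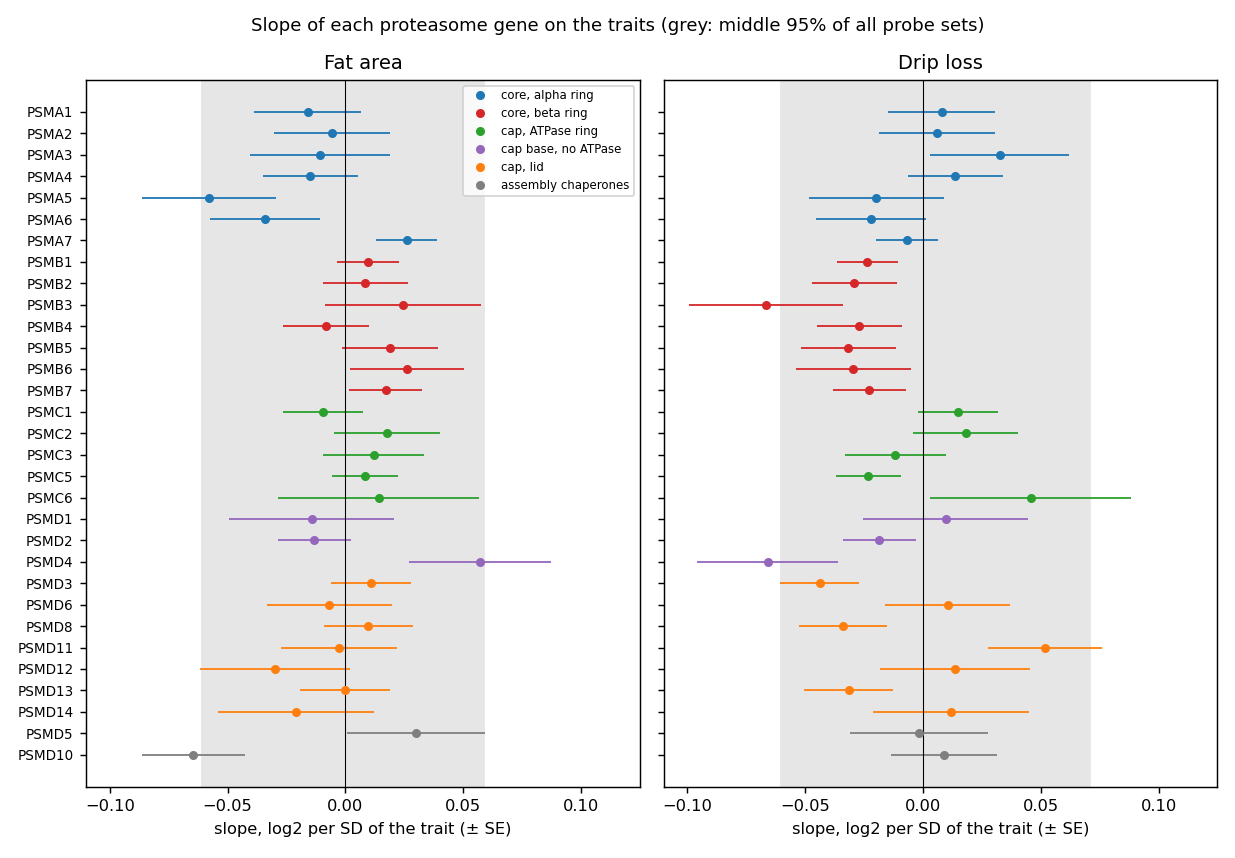
Slope of each of the 31 genes on fat area (left) and drip loss (right), in log2 per SD of the trait, with bars of 1 SE and colours for the place in the complex; the grey band holds the middle 95% of the slopes of all probe sets. PSMD10 has the lowest slope on fat area (-0.065) and PSMB3 on drip loss (-0.067), and no gene passed the adjusted test.

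The mean over all 31 genes gave no clear relation to a trait. Its r was 0.0046 with fat area (95% interval -0.156 to 0.165, rho 0.033, n = 150) and -0.088 with drip loss (-0.245 to 0.073, rho -0.095). Leaving out the 2 pigs with the most extreme trait values, these were 0.015 and -0.082. Within the 10 title blocks the r with fat area was positive in 4, from -0.374 to 0.423, and with drip loss positive in 5, from -0.472 to 0.394. The member mean itself had an r of -0.169 with the array median, -0.187 with the GAPDH difference and 0.169 with the title number.

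Where a gene had several probe sets they agreed for PSMC2 and PSMD1 and not for PSMD11. The 3 probe sets of PSMC2, an ATPase, had an r of 0.768 to 0.842 with each other, and the 2 of PSMD1 an r of 0.939. For PSMD11 the first and second probe set had an r of 0.566, which became 0.820 with the components removed. The third had 0.043 with the first and 0.218 with the second. Its mean level was 6.12, close to the median of 5.95 over all probe sets, against 9.30 for the first and 7.55 for the second. Whether its low level bears on the disagreement was not tested. On drip loss the first 2 had slopes of 0.052 and 0.051 and the third of 0.00075 (SE 0.019). The first had an r of 0.525 with the beta-actin 3' minus 5' difference, against a median absolute r of 0.080 over the 31 genes. With the 3' minus 5' differences of GAPDH and beta-actin as covariates, its slope on drip loss was 0.010 (limma adjusted p = 0.889) in place of 0.052.

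The immunoproteasome subunits, kept out by the rule, were in a different position. PSMB8 and PSMB10 replace cutting subunits when interferon is present, and both were measured. PSMB8 ran from 6.59 through 7.66 to 10.76 and PSMB10 from 6.68 through 7.615 to 10.25. They had an r of 0.750 with each other, and with PSME2, a component of the interferon-inducible activator ring, of 0.853 and 0.817. With the mean of 17 interferon response genes PSMB8 had an r of 0.720 and PSMB10 one of 0.538. With the proteasome mean these were 0.255 and 0.269, and -0.155 and 0.0078 with the components removed. Neither was called for a trait.

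Other proteasome partners followed the subunits to differing degrees. Of the activators, PSME3 had an r of 0.559 with the proteasome mean, PSME2 0.377, PSME1 0.265 and PSME4 0.087, and the inhibitor PSMF1 0.393. Of the core assembly chaperones PSMG1 had 0.471 and PSMG3 0.045. SEM1, a small lid subunit outside the naming rule, had 0.386, and 0.466 with the components removed. None of these 5 activator and inhibitor genes, 2 core chaperones or 3 measured cap partners (SEM1, PAAF1 and TXNL1) was called for fat area or drip loss.

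VCP, the unfoldase that hands ubiquitinated proteins to the proteasome, had an r of 0.526 with the proteasome mean and 0.525 after removal of the components. Its adaptor UFD1 had 0.661 and 0.479. Of 8 measured ubiquitin genes, the conjugating enzymes UBE2N (0.637) and UBE2D2 (0.544) had an r over 0.5 and 6 were positive. All 6 measured genes of the CCT chaperonin, which folds actin and tubulin, were positive, with a median of 0.457 and a highest of 0.639 for TCP1. The 12 cytosolic heat shock genes had a median of 0.175 and the 11 targets of NFE2L2, the oxidative stress factor, one of 0.084. Of the transcription factors linked to proteasome genes, HSF1 had an r of 0.349, STAT3 0.140, NFYC 0.143 and NFYB 0.106. Their list had 11 genes, of which these and VCP were measured and NFE2L1 was not. With the components removed 3 of these 5 genes were positive, VCP among them, and the lowest r was -0.147. Hepatocyte markers had a median of -0.064, with 4 of 9 positive, and 0.055 with the components removed. Macrophage markers had a median of 0.163, with 4 of 5 positive, from -0.259 for MARCO to 0.488 for VSIG4, and -0.025 with the components removed. Endothelial markers had a median of 0.052, with 3 of 5 positive, and -0.297 with 0 of 5 positive once the components were removed. The other 9 cell type lists had medians of -0.143 to 0.101. The part of these cell types in the proteasome mean was not tested. The 14 chaperones of the endoplasmic reticulum had a median of 0.329, the 13 autophagy genes one of 0.206 and the 17 interferon response genes one of 0.243, which was -0.115 with the components removed. Over the 157 genes of these and the cell type lists, limma called 0 for fat area and 0 for drip loss, and 18 (11.5%) and 14 (8.92%) of them had an unadjusted p under 0.05, against 7.08% and 10.99% of all probe sets.

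Outside these lists, the 10 named genes with the highest r with the proteasome mean were ATP6V1E1 (0.735), a subunit of the proton pump of lysosomes, RPL26L1 (0.720), MRPL35 (0.710) of the mitochondrial ribosome, SEC11A (0.677) of the signal peptidase, CHCHD1 (0.676), SAR1A (0.674), a GTPase of the transport vesicles that leave the endoplasmic reticulum, CLNS1A (0.670), LOC100522678 (0.664), RPL7L1 (0.663) and HNRNPC (0.663). The 5 lowest were USP30 (-0.569), a deubiquitinase of mitochondria, SLC41A1 (-0.511), ID2 (-0.509), IGDCC3 (-0.495) and LOC396790 (-0.491). With the components removed ATP6V1E1 stood at 0.587, MRPL35 at 0.590 and LOC100522678 at 0.627, the highest of all named genes. HNRNPC then had 0.281 and USP30 -0.289.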

How the data were processed

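The authors deposited log2 values per probe set, 1 column per pig (a scale judged from the range of the values). GCOS 1.1.1 is the only tool named, per the submitters' processing notes. How probes were summarised and arrays normalized is not given in the sources used here. Of these, 124 control probe sets were left out. Gene names are those of the array annotation, all 36 members matched by Entrez ID to the RefSeq table of Sscrofa11.1; the files name no genome build, so no coordinates are given. Slopes were fitted with limma 3.58.1 (lmFit, eBayes with trend, two-sided, R 4.3.3), each predictor divided by its SD, and adjusted by Benjamini-Hochberg over all 23999 probe sets (23998 where a member is the predictor), called under 0.05. Correlations (NumPy 2.4.6) are descriptions without p; intervals use Fisher's transformation. Scripts were tested on simulated data. Members, lists and comparisons were chosen with earlier results of these data known. Named in full were the members with the highest and lowest slope on each trait, the 3 highest and 3 lowest in r with the other members, the predictors PSMA7 and PSMD8, the cutting subunits, members whose probe sets differ, the 10 other genes with the highest r with the member mean, the 5 with the lowest and the fixed lists; PSMD3 and single pairs were added after their values were seen. Alternatives covered normalization, filters, moderation, normal scores, covariates, the arrays that stand apart and the threshold. The number of arrays limits the precision.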

Additional observations from a re-analysis of the deposited data

How the results depend on the processing

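For fat area, drip loss and their difference, the count of member probe sets called stayed at 0 under all 14 alternatives run for each, including a threshold of 0.10. With only probe sets of an SD above 0.25, 21 members remained to be tested. The 20 called with PSMA7 became 11 of these 21 (52.4%), against 23.55% of all probe sets passing that filter. They became 11 of 35 with the 5 components as covariates, against 4.05% of all probe sets. The 25 called with PSMD8 became 13 of 21 (61.9%) under the SD filter, against 75.6%, so the members' share was then below the background. The r of core and cap means was 0.635 to 0.736 under 12 alternatives and 0.747 with the components removed. The r of the member mean with drip loss, -0.088, was 0.074 as the median within title blocks; the cause was not tested. With the Y-linked gene EIF1AY as a covariate the r of the member mean with fat area was -0.126 in place of 0.0046. With the 5 components removed it was 0.110, so its sign depended on the covariate. The share of calls with PSMA7 that were higher depended on the scaling. It was 13 of 20 as deposited, 11 of 25 after quantile normalization and 16 of 22 with arrays centred on their median. With PSMD8 it was 14 of 25, 16 of 25 and 22 of 29. The background moved as well. In either direction, 16.7%, 24.9% and 53.4% of all probe sets were called with PSMA7 under these scalings, and 59.6%, 67.2% and 77.3% with PSMD8. Of the 35 member probe sets, 57.1%, 71.4% and 62.9% were called with PSMA7, and 71.4%, 71.4% and 82.9% with PSMD8. With centred arrays the members' shares were thus not far above the background. The share of all probe sets called higher is not given for quantile normalization or centring. Family, sex and slaughter day are not in the labels. No paired analysis was possible because all pigs form 1 group.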
